A study of Zea mays subsp. mays with 2 samples.

Results

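Among the loci that maize seedlings transcribe, a small set was on in the root and off in the shoot. A locus was taken into the set when it lay on chromosomes 1 to 10, was alone at its listed position, spanned more than 300 bases, and had 10 FPKM or more in roots and below 1 FPKM in shoots. FPKM is a fragment count scaled to transcript length and to library size. Of 29674 listed loci, 23777 met the conditions on chromosome, position and span, and are called eligible here. The set holds 164 of them, 0.690% of the eligible loci, and the same rule with the organs exchanged found 419 loci, or 1.76%.

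Roots and shoots came from plants of the inbred line B73, the line behind the maize reference genome, grown in a growth chamber and harvested 14 days after germination. Polyadenylated RNA of each organ was sequenced as 1 paired-end library, so the root and the shoot differ in organ and share line, age and growth conditions. How many plants went into each library is not given in the sources used here. With no replicates there is no spread between plants, no p-value was computed, and every difference below is one between these 2 libraries. Both organs are mixtures of cell types, so fewer cells of a type and less RNA per cell cannot be told apart.

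Roots take up water and mineral ions, anchor the plant and meet the microbes of the soil, while shoots carry the photosynthetic tissue. In grasses, genes known for root expression include uptake transporters, enzymes that make root exudates and the enzymes that make metal chelators for iron uptake. Many plant gene families grow by tandem duplication, which leaves copies of like length side by side on a chromosome. The deposited table names loci by assembly number and position on B73 RefGen_v2 and gives no gene names, so none of the loci below is tied to a gene, to coding or noncoding RNA, or to a strand.

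The set was chosen by its root and shoot values, so the levels that follow describe it and are no test of it. Root levels of the 164 loci ran from 10.1 to 405 FPKM with a median of 17.9, and shoot levels ran from 0 to 0.996 FPKM with a median of 0.389. In roots, 97 of the 164 were below 20 FPKM, 51 were at 20 to below 50, 7 at 50 to below 100, and 9 at 100 or more. The set was therefore mostly of moderate level, with a short upper tail. The 4 loci highest in roots held 25.4% of the summed root level of the set. The whole set held 0.409% of the summed root level of the eligible loci.

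**Figure D1:**
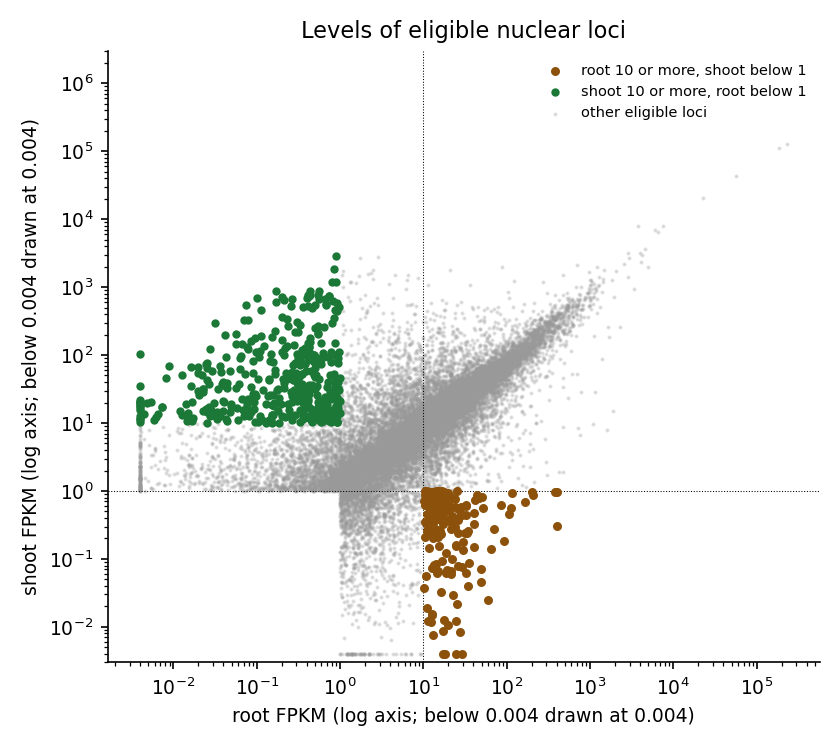
Root FPKM (horizontal, log axis) against shoot FPKM (vertical, log axis) for 23777 eligible loci, 1 point each. The 164 loci at 10 FPKM or more in roots and below 1 in shoots are brown, the 419 of the exchanged rule are green, and the brown points crowd at the root limit, with 97 below 20 FPKM.

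The locus highest in roots lay on chromosome 5 from 191910232 to 191911574, at 405 FPKM in roots and 0.310 in shoots. The next was on chromosome 10 from 1087128 to 1088830, at 402 FPKM in roots and 0.977 in shoots. The third, on chromosome 10 from 139121727 to 139125043, had 382 FPKM in roots and 0.972 in shoots. Chromosome 10 thus held both of the loci next to the top, each just inside the shoot limit of 1 FPKM. On chromosome 3, the locus from 187609686 to 187611914 had 205 FPKM in roots and 0.865 in shoots. A further locus of chromosome 10, from 717205 to 895755, had 199 FPKM in roots and 0.982 in shoots. The locus on chromosome 1 from 110491223 to 110493721 had 167 FPKM in roots and 0.690 in shoots. These are the 6 highest of the set, and the other 4 of the 10 highest lay at 93.0 to 117 FPKM in roots and 0.185 to 0.944 in shoots. They were on chromosomes 2, 10, 6 and 4, starting at 216785740, 73282382, 156550563 and 156395664.

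Off in shoots covered a wide range of levels. Of the 164 loci, 4 were listed at 0 in shoots, 35 were above 0 and below 0.1 FPKM, and 67 were at 0.5 FPKM or more. The 16 loci at 0.9 FPKM or more in shoots sit close to the limit. Just inside it were loci on chromosomes 10, 7 and 2 at 15.2, 10.6 and 14.8 FPKM in roots and 0.996, 0.995 and 0.994 in shoots. Just outside it were loci on chromosomes 3, 6 and 5 at 28.5, 22.9 and 21.4 FPKM in roots and 1.01, 1.03 and 1.04 in shoots. At the root limit, the nearest loci inside were at 10.1, 10.2 and 10.4 FPKM in roots, and the nearest outside at 9.99, 9.72 and 9.70 FPKM. No gap in level marks either limit: 156 eligible loci were at 5 to below 10 FPKM in roots and below 1 in shoots, and 112 were at 10 or more in roots and 1 to below 2 in shoots.

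The 4 loci listed at 0 in shoots were at moderate root levels. They lay on chromosome 1 from 6579359 to 6579852 at 29.3 FPKM in roots, on chromosome 3 from 112044580 to 112047500 at 24.8 FPKM, on chromosome 3 from 130447796 to 130449001 at 17.3 FPKM, and on chromosome 9 from 142935491 to 142936688 at 18.1 FPKM. No fold is given for them, because the estimate itself may have failed at a listed 0.

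For the 160 loci above 0 in shoots, root exceeded shoot by 10.6-fold to 3313-fold, and the median fold was 56.8. Of these, 60 were past 100-fold and 11 past 1000-fold. The largest folds rest on a handful of shoot fragments. Low FPKM values fall on steps set by the worth of 1 fragment, which was fitted at 0.00766 FPKM in roots and 0.00884 in shoots for 1000 effective bases. By these steps and the whole span, the set had a median of 3691 fragments a locus in roots and 67.0 in shoots, but 8 loci above 0 in shoots had fewer than 1.5 shoot fragments. Introns make these numbers too high, so they are upper estimates, and intervals built on them are too narrow where introns are present. Off in shoots did not mean silent, as 67 of the 164 loci were at 0.5 FPKM or more. By the upper estimate from the whole span, 54 of the 164 had 100 shoot fragments or more, a number that may be too high. By the same estimate 36 had fewer than 10. The lowest such estimate behind a root value was 153 fragments.

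The locus with the largest fold, on chromosome 9 from 135306335 to 135307589, had 27.8 FPKM in roots and 0.00840 in shoots. Its shoot value is that of about 0.982 fragments, and the 3313-fold difference has an exact 95% counting interval of 594-fold to 130883-fold. Its neighbour from 135299045 to 135300324 had 60.1 FPKM in roots and 0.0246 in shoots, or about 2.94 shoot fragments, a 2444-fold difference with an interval of 836-fold to 11852-fold. Such intervals cover counting error alone, and these show that the order among the largest folds is not resolved. The locus on chromosome 1 from 49320802 to 49323158 had 24.6 FPKM in roots and 0.0120 in shoots, 2044-fold with an interval of 699-fold to 9913-fold. The locus on chromosome 2 from 41960802 to 41962177 had 17.0 FPKM in roots and 0.00873 in shoots, and the locus on chromosome 1 from 11212079 to 11213116 had 19.7 FPKM in roots and 0.0107 in shoots. They rest on about 1.14 and 0.989 shoot fragments, and their intervals begin at 350-fold and 330-fold and end at 77110-fold and 72690-fold.

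Better counted was the most abundant locus of the set, on chromosome 5. Its 0.310 FPKM in shoots corresponds to about 39.4 fragments, and its 1306-fold difference has an interval of 955-fold to 1837-fold. Also past 1000-fold, on chromosome 8 from 5225616 to 5244500, a locus spanning 18884 bases had 13.0 FPKM in roots and 0.00751 in shoots, on at most about 15.9 shoot fragments. The remaining loci of the 10 largest folds lay on chromosome 7 from 117259710 to 117261598, at 17.6 FPKM in roots and 0.0128 in shoots, on chromosome 1 from 2306442 to 2308346, at 25.0 FPKM in roots and 0.0218 in shoots, and on chromosome 10 from 116116315 to 116118215, at 49.8 FPKM in roots and 0.0461 in shoots.

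How often a transcribed locus was off in the other organ depended on level, a description of the values that chose the sets. Among eligible loci at 10 FPKM or more, 1.39% of those on in roots were off in shoots, and 3.45% of those on in shoots were off in roots. By level in roots, the share off in shoots was 2.40% at 10 to below 20 FPKM, 1.17% at 20 to below 50, 0.387% at 50 to below 100 and 0.573% at 100 or more. By level in shoots, the share off in roots was 3.49%, 2.57%, 3.42% and 6.07% in the same bins. At 100 FPKM or more this came to 9 of 1571 loci on in roots and 91 of 1498 loci on in shoots. The median level in the organ that was on was 17.9 FPKM for the root set and 30.6 FPKM for the shoot set.

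Span, which the rule used as a floor of 300 bases alone, was short in the set. The span is the end minus the start and includes introns. The median span was 1467 bases, with quartiles of 1116 and 2724, against 3309 bases, with quartiles of 1815 and 5643, over all eligible loci. Of the 164 loci, 75 spanned more than 1000 and up to 2000 bases, or 45.7%, against 18.3% of the eligible loci. At the other end, 14 of the 164 spanned more than 5000 bases, or 8.54%, against 29.8%.

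Span was shorter in bands of lower shoot level, though inside the set only the lowest band stood apart. Among eligible loci at 10 FPKM or more in roots, the median span was 1467 bases at a shoot level below 1 FPKM, 2692 bases for the 1494 loci at 1 to below 10 FPKM, and 4270 bases for the 10131 loci at 10 FPKM or more. The same order was seen among the less abundant loci, at 10 to below 20 FPKM in roots, where the medians were 1438, 2980 and 4625 bases. Inside the set, the 39 loci below 0.1 FPKM in shoots had a median span of 1214 bases, and 89.7% of them spanned 2000 bases or less, against medians of 1650 and 1702 bases for the 58 loci at 0.1 to below 0.5 FPKM and the 67 at 0.5 FPKM or more. By root level, the median span of the set was 1438 bases at 10 to below 20 FPKM, 1472 at 20 to below 50 and 1517 for the 16 loci at 50 FPKM or more.

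Short span was shared with the exchanged set. Loci on in shoots and off in roots had a median span of 2038 bases, and 49.6% of them spanned 2000 bases or less, against 64.0% in the root-side set and 17.1% of loci at 10 FPKM or more in both organs. Among loci on in roots, 75 of 1542 (4.86%) were off in shoots at spans above 1000 and up to 2000 bases and 5 of 2820 (0.177%) above 5000 and up to 10000 bases, the highest and the lowest share of 6 span classes. The share did not fall steadily with span: it was 4 of 184 (2.17%) above 300 and up to 500 bases, and 9 of 1643 (0.548%) above 10000 bases. For loci on in shoots, 154 of 1537 were off in roots at spans above 1000 and up to 2000 bases. Above 5000 and up to 10000 bases it was 46 of 2953 (1.56%). The lowest share on the shoot side was 18 of 1746 (1.03%), above 10000 bases. The exon length behind each FPKM value is not given, so whether these loci are short transcripts or transcripts with few introns was not tested.

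**Figure D2:**
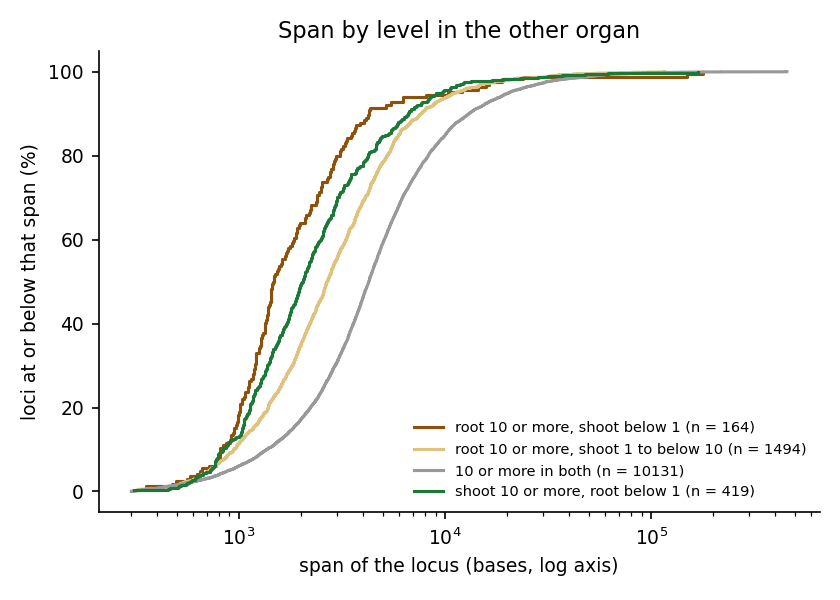
Cumulative share of loci (vertical, percent) by span (horizontal, bases, log axis), for loci on in roots split by shoot level, and for loci on in shoots and off in roots. The curve of the 164 loci on in roots and off in shoots lies farthest left through the middle of the range, with a median of 1467 bases, and that of the 10131 loci on in both farthest right, with a median of 4270.

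The extremes of span were few. The longest locus, on chromosome 10, spanned 178550 bases and was the one at 199 FPKM in roots and 0.982 in shoots described above. The next, on chromosome 3 from 20940818 to 21090105, spanned 149287 bases and had 22.2 FPKM in roots and 0.343 in shoots. After these a gap follows, down to 23791 bases on chromosome 8 from 56567222, at 10.5 FPKM in roots and 0.885 in shoots. Next in span were the 18884-base locus of chromosome 8 described above and one of 16337 bases on chromosome 1 from 30042021, at 34.4 FPKM in roots and 0.259 in shoots. The 5 shortest spanned 325 to 559 bases and were at 12.4 to 29.3 FPKM in roots and 0 to 0.994 in shoots. They lay on chromosome 10 from 85857170, chromosome 4 from 220834857, chromosome 2 from 156138231, chromosome 1 from 6579359 and chromosome 2 from 235930580.

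The set was spread over the 10 chromosomes. Chromosome 1 held 27 of the 164 loci and chromosome 10 held 22, with 11 to 20 on each of the others. As a share of eligible loci, chromosome 10 stood highest at 1.37% (22 of 1603) and chromosome 5 lowest at 0.398% (11 of 2762), and the other 8 lay between 0.471% and 0.883%. Chromosome 10 was also highest for the exchanged set, at 2.68% of its eligible loci. Chromosome 10 carried 4 of the 10 loci highest in roots, while the highest of the 17 loci on chromosome 7 had 29.1 FPKM in roots and the highest of the 15 on chromosome 8 had 29.6 FPKM.

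Along the chromosomes the loci followed the eligible loci. The outer 10% at either end of the listed extent held 59 of the 164, or 36.0%, against 32.7% of the exchanged set and 33.3% of all eligible loci. The number of other listed positions within 500 kb had a median of 14.5 around loci of the set and 16 around all eligible loci. These values lie near those of the eligible loci.

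**Figure D3:**
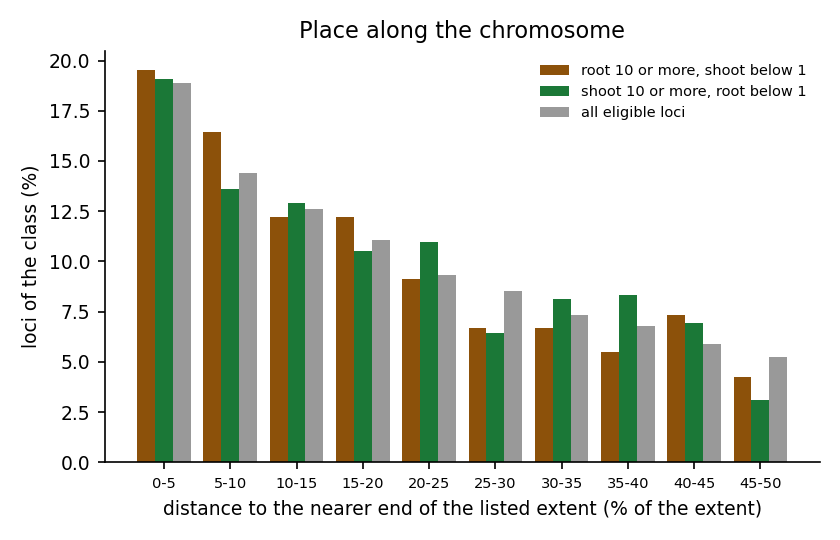
Share of each class (vertical, percent of its loci) by distance to the nearer chromosome end (horizontal, percent of the extent from first to last listed position). Brown, green and grey bars broadly fall from the end inward, with 36.0% of the root-side set and 33.3% of all eligible loci in the outermost 10%.

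The nearest listed position lay farther from loci of the set than from eligible loci at large. The median distance to it, edge to edge, was 24229 bases for the set and 17923 bases for the exchanged set. It was 8965 bases for loci on in both organs and 10462 bases for all eligible loci. The gaps on each side differed less. Their medians were 43814 bases before and 48820 bases after loci of the set, against 38367 and 38249 bases for all eligible loci. A neighbour within 10000 bases was found for 62 of the 164, or 37.8%, against 49.5% of eligible loci, and one within 1000 bases for 14, or 8.54%, against 16.3%. At the far end, 4 of the 164 (2.44%, 95% Clopper-Pearson interval 0.668 to 6.13%) had no listed position within 200000 bases on either side, against 1.48% of eligible loci, which lies inside that interval. One of the 4 was the locus on chromosome 6 from 66895325 to 66897848, at 41.1 FPKM in roots and 0.324 in shoots, whose neighbours lay 261176 and 360348 bases away. The table lists no locus at or below 1 FPKM in both organs, so silent genes between the listed ones are not seen.

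Most loci of the set stood alone. Of 2051 windows of 1 Mb with an eligible locus, 148 held a member. Of these 148, 133 held 1, 14 held 2 and 1 held 3. There were 8 adjacent pairs, with no other listed position between the partners, which took in 16 of the 164 loci, or 9.76%, and no run of 3 or more. Of the 328 places next to a member, 16 were taken by members. Over chromosomes 1 to 10, members were 164 of 26802 listed positions. The share next to a member was thus the higher, and no test of it was made. The exchanged set had 16 adjacent pairs among its 419 loci. The gap inside the 8 pairs ran from 6011 to 360348 bases.

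The partners of a pair were usually unlike in span. In 1 of the 8 pairs the spans were within 5% of the larger and in a second within 10%, while 3.80% of all adjacent pairs of eligible loci were within 5% and 7.65% within 10%. The pair within 5% was the one on chromosome 9 with the 2 largest folds of the set: spans of 1279 and 1254 bases, 6011 bases apart, at 60.1 and 27.8 FPKM in roots and 0.0246 and 0.00840 in shoots. The pair within 10% lay on chromosome 6, with spans of 2523 and 2389 bases from 66895325 and 67258196, at 41.1 and 25.7 FPKM in roots and 0.324 and 0.985 in shoots. A listed locus of 2473 bases followed it from 67454670, at 30.9 FPKM in roots and 4.36 in shoots. So 3 consecutive listed positions there had spans between 2389 and 2523 bases. The first 2 are higher in roots by the rule, and the third was higher by its own values.

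Root levels inside the pairs were close in some and far apart in others. On chromosome 1 the loci from 49287419 and 49320802 were at 22.7 and 24.6 FPKM in roots and at 0.0295 and 0.0120 in shoots. On chromosome 3 the loci from 131330087 and 131609650 were at 12.8 and 14.2 FPKM in roots and 0.0149 and 0.259 in shoots. The pair on chromosome 2, from 216785740 and 216821289, was the least even, at 117 and 16.5 FPKM in roots and 0.944 and 0.621 in shoots. In the other 5 pairs the root levels differed by 1.60-fold to 2.16-fold.

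**Figure D4:**
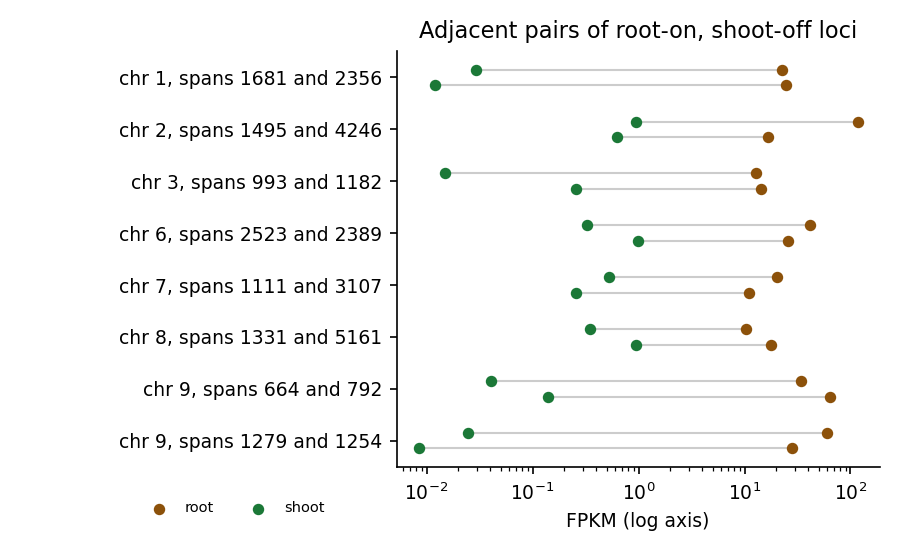
Root (brown) and shoot (green) FPKM (horizontal, log axis) of the 2 loci in each of the 8 adjacent pairs (rows, with chromosome and spans in bases). The chromosome 2 pair is the least even in roots, at 117 and 16.5 FPKM, and the lower pair on chromosome 9 has shoot values of 0.0246 and 0.00840 FPKM.

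Allowing other listed positions between members, with at most 250000 bases from one member to the next, a setting chosen after the values were seen, gave 10 groups holding 21 of the 164 loci. The single group of 3 lay on chromosome 7 from 168807255 to 168995258. Its members, with spans of 1434, 1437 and 1434 bases, had 14.4, 11.2 and 12.5 FPKM in roots and 0.0856, 0.0187 and 0.230 in shoots. None of the 4 positions between them met the rule, and 1 was 4-fold higher in roots on the log2(FPKM + 1) scale. That one, from 168904049, spanned 1429 bases and had 5.05 FPKM in roots and 0.0230 in shoots. Those from 168813454 and 168821201, with spans of 1598 and 1578 bases, had 1.93 and 1.81 FPKM in roots and a listed 0 in shoots. No locus at or below 1 FPKM in both organs is listed, so a locus at 0 in shoots can only be listed as higher in roots. The fourth, from 168913687, spanned 9016 bases and was even, at 43.5 FPKM in roots and 42.2 in shoots. Just before the group, the position from 168791843 spanned 1511 bases, at 2.26 FPKM in roots and a listed 0 in shoots. Just after it, the position from 169031106 spanned 2116 bases, at 2.12 FPKM in roots and 0.166 in shoots.

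The group at the start of chromosome 10 was the most abundant. It joined the locus from 717205 to 895755, at 199 FPKM in roots and 0.982 in shoots, with the locus from 1087128 to 1088830, at 402 FPKM in roots and 0.977 in shoots. The single listed position between them, from 1078912 to 1085871, holds 2 loci and was left out by the rule. Its summed level was 106 FPKM in roots and 13.7 in shoots, and 1 of its 2 loci had 74.8 FPKM in roots and 0.475 in shoots. The 2 members are higher in roots by the rule, and the position between them was higher in roots in its summed level.

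The neighbours of the set leaned toward the root as well. Each of the 164 loci has a listed position on both sides, which gives 328 flanking places, 16 of them taken by other members. Of the remaining 312, 30 (9.62%) lay 4-fold or more above their shoot level in roots, on the log2(FPKM + 1) scale, and 17 (5.45%) were 4-fold or more higher in shoots. Among all 26638 listed positions that are no member, the shares were 3.05% and 7.06%. The log2 ratio of roots to shoots had a median of 0.24 over the flanks and 0.07 over all such positions, and 62.5% of the flanks were above their shoot level in roots, against 54.5%. At the positions 2 and 3 places away the lean was smaller, with shares nearer those of all non-member positions: 32 of 645 (4.96%) were 4-fold higher in roots, with 4.32 to 6.13% at each of the 4 places, and 4.97 to 6.92% were 4-fold higher in shoots. Neighbouring loci share their region, and no test of these shares was made.

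**Figure D5:**
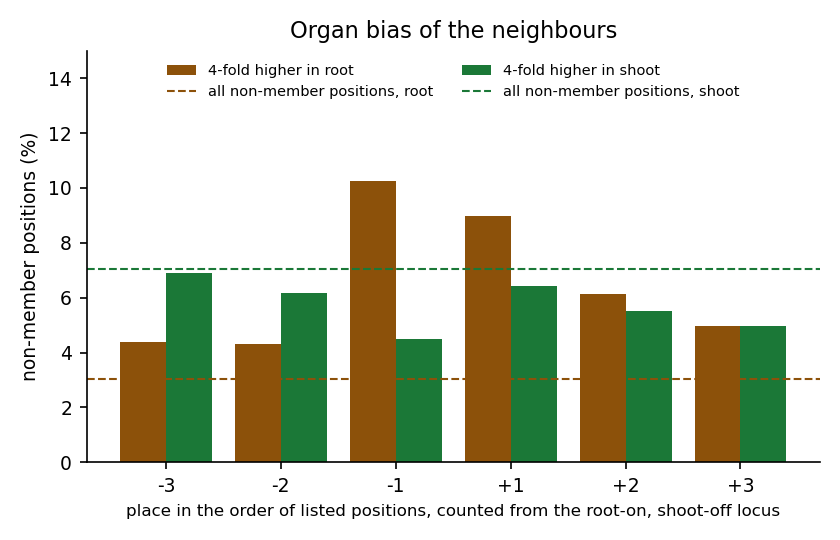
Share of non-member positions (vertical, percent) that were 4-fold higher in roots (brown) or in shoots (green), by place in the order of listed positions from each of the 164 loci (horizontal). Dashed lines mark the shares over all non-member positions, 3.05% for root and 7.06% for shoot, and the brown bars stand highest at the places next to the locus, at 10.3% and 8.97%.

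The flanking loci were on the whole less abundant than other positions. Their median was 8.32 FPKM in roots and 6.86 in shoots, against 10.8 FPKM in roots and 11.8 in shoots over all positions that are no member. At 10 FPKM or more in both organs were 34.3% of the flanks, against 45.4%. Detected at 1 FPKM or more in roots and below 1 in shoots were 15.1% of the flanks, against 5.58%, while the reverse pattern was near the background, at 8.97% against 9.45%.

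The 30 flanks higher in roots belonged to 28 members, 2 of which had such a flank on both sides. Of the 30, 21 were at 1 FPKM or more in shoots and 9 below it. The position between the abundant pair of chromosome 10 flanks both of its members and counts for each. The most abundant was a locus of 516 bases on chromosome 3 from 130520292, at 1080 FPKM in roots and 9.66 in shoots, next to one of the loci listed at 0 in shoots. On chromosome 1, the member from 235833736 to 235834603, at 28.4 FPKM in roots and 0.586 in shoots, lay between 2 loci of the same bias. These were at 146 FPKM in roots and 3.33 in shoots, from 235757730, and at 227 FPKM in roots and 10.004 in shoots, from 235862927. The member of chromosome 2 from 33498922 was the other with a root-biased flank on both sides, at 9.20 and 8.69 FPKM in roots and 1.12 and 0.244 in shoots.

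Flanks of near-equal span are where tandem copies would be looked for. Of 279 flanks that were eligible and no member, 13 (4.66%) had a span within 5% of their member's. The share was 3.80% of all adjacent eligible pairs, which were not matched for span. Among these 13, 5 were 4-fold higher in roots, and among the other 266 eligible flanks 19 were (7.14%). The 33 flanks that were not eligible, at shared positions or with spans of 300 bases or less, held the remaining 6. On chromosome 2, the member from 3229021 to 3231796, spanning 2775 bases, had 21.5 FPKM in roots and 0.277 in shoots. The locus before it, 1718 bases away and spanning 2773 bases, had 34.2 FPKM in roots and 2.37 in shoots. The left flank of the chromosome 1 member above spanned 872 bases, against 867 bases for the member. Near-equal span did not always come with the same bias: on chromosome 5, the member from 212618724 to 212619740, at 11.5 FPKM in roots and 0.781 in shoots, lay 233 bases from a locus of 994 bases at 1.32 FPKM in roots and 2.45 in shoots. Without sequence of this assembly, whether any of these are copies of one another was not tested.

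A few loci of the set lay beside loci with the opposite pattern. In 5 cases the next listed position was an eligible locus on in shoots and off in roots, 1.60% of the 312 flanks, against 1.57% of all positions that are no member. Among next listed positions within 10000 bases of a member, the highest in shoots was a locus of 297 bases, too short to be eligible. It lay on chromosome 1 from 281715217 to 281715514, listed at 0 in roots and at 543 FPKM in shoots. The member 5586 bases away, from 281708665, had 16.8 FPKM in roots and 0.578 in shoots. The closest of the 5 eligible cases was on chromosome 5, where the member from 206741918 to 206742983, at 22.0 FPKM in roots and 0.0986 in shoots, lay 464 bases from a locus ending at 206744916, at 0.456 FPKM in roots and 488 in shoots. The locus at 205 FPKM in roots on chromosome 3 had a neighbour 5099 bases away, from 187602535, at 12.0 FPKM in roots and 335 in shoots. On chromosome 1, the member from 221368308 to 221369596, at 11.2 FPKM in roots and 0.451 in shoots, lay 979 bases from a locus at 1.20 FPKM in roots and 104 in shoots. Abundant and even neighbours within 10000 bases lay beside the member from 51010179 on chromosome 1, whose neighbour had 298 FPKM in roots and 211 in shoots, and beside the member from 26070593 on chromosome 8, whose neighbour had 107 FPKM in roots and 97.1 in shoots.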

How the data were processed

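Polyadenylated RNA of maize B73 roots and shoots was measured in 1 library per organ, paired-end over 100 cycles, non-directional, per the labels. The deposited FPKM values, 1 per locus and organ, were made by the authors with TopHat, Cufflinks and Cuffdiff, per the submitters' processing notes. Software versions, settings, multiply matching reads and scaling between libraries are not described in the sources used. Per the file headers, positions belong to B73 RefGen_v2. The table holds no locus at or below 1 FPKM in both organs.

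Loci were classed by level as deposited. For neighbours, each position on chromosomes 1 to 10 (26802 in all) counted as 1 entry, with FPKM summed where several loci share it. A 4-fold call is a log2((root FPKM + 1) / (shoot FPKM + 1)) of 2 or more in size, which understates the change of low loci. The worth of a fragment was fitted from the steps of low values of 171 root and 113 shoot loci. It takes FPKM as scaled to mapped fragments alone. The depth in total fragments is unknown. Intervals of folds are exact conditional binomial ones at 95% from the rounded fragment numbers.

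Loci named in the text are, by rule, the 10 highest in roots, the 10 largest folds and those listed at 0 in shoots. Also by rule are the 5 longest and 5 shortest, the 3 nearest each side of each limit and adjacent near-equal pairs. The last by rule are the 5 eligible next listed positions within 10000 bases highest in shoots. The others, the other pairs, groups, isolated loci and flanks included, were chosen after their values were seen. The set, the lists and the rules were chosen with earlier results of these data known. Steps were tested on simulated data. The software was Python 3.11.15 (matplotlib 3.10.9, scipy 1.17.1, numpy 2.4.6, pandas 2.3.3).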

Additional observations from a re-analysis of the deposited data

How the results depend on the processing

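Of 71 alternative values, 37 stayed within 1.5 times (counts) or within the 95% binomial interval (medians and shares) of the value reported. This tally is no measure of stability, because some alternatives change the quantity itself. The outer 5% and 20% were set against the interval of the outer 10%, and an on level of 20 FPKM forces the median root level up. The exchanged set was the larger under all 12 settings of the rule, while the size of both followed the limits. Given as root-side loci, shoot-side loci and root-side adjacent pairs, an on level of 5 FPKM gave 320, 679 and 19, one of 20 FPKM 67, 267 and 4, and an off level of 0.1 FPKM 39, 123 and 2. An off level of 0.5 FPKM gave 97 root-side loci and 4 pairs. A 4-fold ratio in place of the off limit gave 655, 1298 and 62 with a pseudocount of 1, and 744, 1385 and 67 with 0.1. Rescaling both libraries to sums of 1000000 gave 115 root-side loci and 4 pairs. The median span was 1214 bases with off at 0.1 FPKM, and 1821 and 1868 bases with the 4-fold ratio at a pseudocount of 1 and 0.1, and it stayed below the 3309 bases of eligible loci throughout. The median root level was 10.5 and 29.7 FPKM at on levels of 5 and 20, 15.7 on the rescaled values, and 28.4 and 26.3 with the 4-fold ratios. The median log2 ratio, 3.79 with a pseudocount of 1, was 5.56 with 0.1 and 2.07 with 5. Near-equal adjacent pairs were 1 within 5% and 2 within 10%. Flanks higher in roots were 22.8% at 2-fold and 17.3% with a pseudocount of 0.1, against 11.5% and 5.89% of all non-member positions. The outer 5% and 20% of the extent held 19.5% and 60.4% of the set, near the 18.9% and 57.0% of all eligible loci. Counting each flanking position once, and linking members at 100000 or 500000 bases (6 and 15 groups), were chosen after seeing the data. No paired analysis was possible because each organ has 1 library, which also bars leaving one out. Fold sizes above 1000 are limited by depth, with 1 to 3 shoot fragments behind several.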

Other observations

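Loci that met the levels but not the other conditions numbered 34 on the root side and 85 on the shoot side. On the root side, 15 of the 34 spanned 300 bases or less and 19 shared their position with another locus. Of the short ones, 13 were listed at 0 in shoots, and the root levels of all 15 ran from 10.5 to 7807 FPKM with a median of 35.4. The locus at 7807 FPKM spanned 105 bases, less than the 230 bases by which effective bases fell short of span in the root fit. Levels at such short spans are uncertain and are not set beside those of the set. Among shared positions, 1 locus on chromosome 10 from 8084278 to 8096923 had 182 FPKM in roots and a listed 0 in shoots. On chromosome 3 from 15433834 to 15434198, both loci of the position qualified, at 147 and 92.4 FPKM in roots and 0.00118 and 0.336 in shoots. At the position on chromosome 2 from 199206139 to 199211625 both qualified as well, at 32.6 and 31.9 FPKM in roots and 0.183 and 0.810 in shoots.

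Flanks between 10000 and 100000 bases away from their member were 4-fold higher in roots in 20 of 167 cases (12.0%), those nearer in 6 of 69 (8.70%) and those farther away in 4 of 76 (5.26%). The split by distance was made after seeing the data and was not tested.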
